A study of Rattus norvegicus with 52 samples.

Results

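The transcripts described here are 9 markers of the B cell lineage, chosen by gene symbol: Pax5, Pou2af1, Cd79a, Cd79b, Ms4a1, Cd22, Blk, Jchain and Mzb1. All 9 of 9 were found among the 34034 genes counted, and all 9 were among the 17796 genes with enough counts to test. They were measured in whole lung of wild-type (WT) SD rats, an outbred laboratory strain, after 1 intratracheal instillation, in which a liquid is placed in the windpipe and runs into the lungs. The 12 dosed groups received ABD or ADEB18 at 0.125, 0.25 or 0.5, BKC at 0.25, 0.5 or 1, or DDAC at 0.0625, 0.125 or 0.25, and the Control group received DW. Each of the 13 groups had 4 libraries, 52 in all, made with a kit that tags the 3' end of each messenger RNA. Levels are given in CPM, a gene's share of its library's counts after scaling between libraries. All 4 agents are quaternary ammonium compounds (QACs), positively charged surfactants used as disinfectants and preservatives. The labels state neither the unit of the doses nor the time between instillation and sampling, nor the sex and age of the rats. The names ABD and ADEB18 are not spelled out in the labels.

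B cells recognise antigen through a membrane immunoglobulin that signals through the paired chains Cd79a and Cd79b. Pax5 keeps a cell committed to the B lineage and is shut off when the cell becomes an antibody-secreting plasma cell. Plasma cells also lose Ms4a1 and Cd22, but make large amounts of Jchain, which links immunoglobulin A or M units into polymers for transport across mucosal epithelium, and of Mzb1, an endoplasmic reticulum protein that helps to assemble them. In the lung, B cells lie in the blood, the interstitium and lymphoid aggregates near the airways, and plasma cells lie around the airways.

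RefSeq promoter sequences, 250 bases before to 50 after the gene start, were at hand for 3 of the 9 members (Cd79a, Jchain and Cd22; rat build GRCr8). The promoters of Cd79a, a member of the B cell set, and Jchain, from the secretory set, are shown because these 2 sets varied separately over the libraries. They lie at chr1:89621210-89621509 (plus strand) and chr14:19822726-19823025 (plus strand), and capitals mark the hexamer AGGAAG, a core recognised by ETS-family factors.
Cd79a: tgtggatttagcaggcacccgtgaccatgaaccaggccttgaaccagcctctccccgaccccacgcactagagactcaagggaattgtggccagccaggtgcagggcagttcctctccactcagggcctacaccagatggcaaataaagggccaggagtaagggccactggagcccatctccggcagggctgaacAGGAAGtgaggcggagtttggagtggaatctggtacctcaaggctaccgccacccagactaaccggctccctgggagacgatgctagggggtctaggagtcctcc
Jchain: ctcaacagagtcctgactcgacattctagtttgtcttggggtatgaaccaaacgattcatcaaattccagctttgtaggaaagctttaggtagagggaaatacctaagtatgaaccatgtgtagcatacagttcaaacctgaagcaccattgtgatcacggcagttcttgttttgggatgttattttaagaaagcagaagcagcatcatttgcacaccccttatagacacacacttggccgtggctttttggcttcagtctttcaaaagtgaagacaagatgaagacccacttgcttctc
Read on both strands, AGGAAG was found 1 time in the Cd79a promoter, 2 times in the Cd22 promoter (not shown) and 0 times in the Jchain promoter. Of all 33469 promoters of this length, 34.5% held it. The octamer ATGCAAAT, read on both strands, is the element that Pou2af1 acts on together with octamer factors, and it was found in 0 of the 3 promoters and in 1.78% of all promoters. These letter matches are a description, with no bearing on whether a factor binds.

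The libraries held 8026084 to 13852249 counts and detected 16932 to 19355 genes. No pair of libraries was identical. Lung identity markers such as Sftpc and Ager were high in every library, with 13099 to 27269 summed CPM over 6 genes. Markers of thymus and precursor lymphocytes stayed at or below 3.36 summed CPM. Cardiac muscle genes varied between libraries of the same group, from 92.0 to 6549 summed CPM over all libraries. Their part in the results below was not tested.

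Over all 13 groups, no member differed by edgeR's quasi-likelihood test with Benjamini-Hochberg adjustment (adjusted p under 0.05): 0 of 9 passed, against 24.2% of all genes tested. Cd79a, Pax5 and Cd79b came nearest, with adjusted p of 0.0574, 0.0658 and 0.0790, and these 3 of 9 had an unadjusted p under 0.05, against 35.7% of all genes. In the pairwise comparisons 1 member passed: Cd79b was 2.60-fold higher after the lowest DDAC dose than in Control. In bulk tissue, more cells of a type and more RNA per cell cannot be told apart, nor can fewer cells and less RNA per cell.

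**Figure D1:**
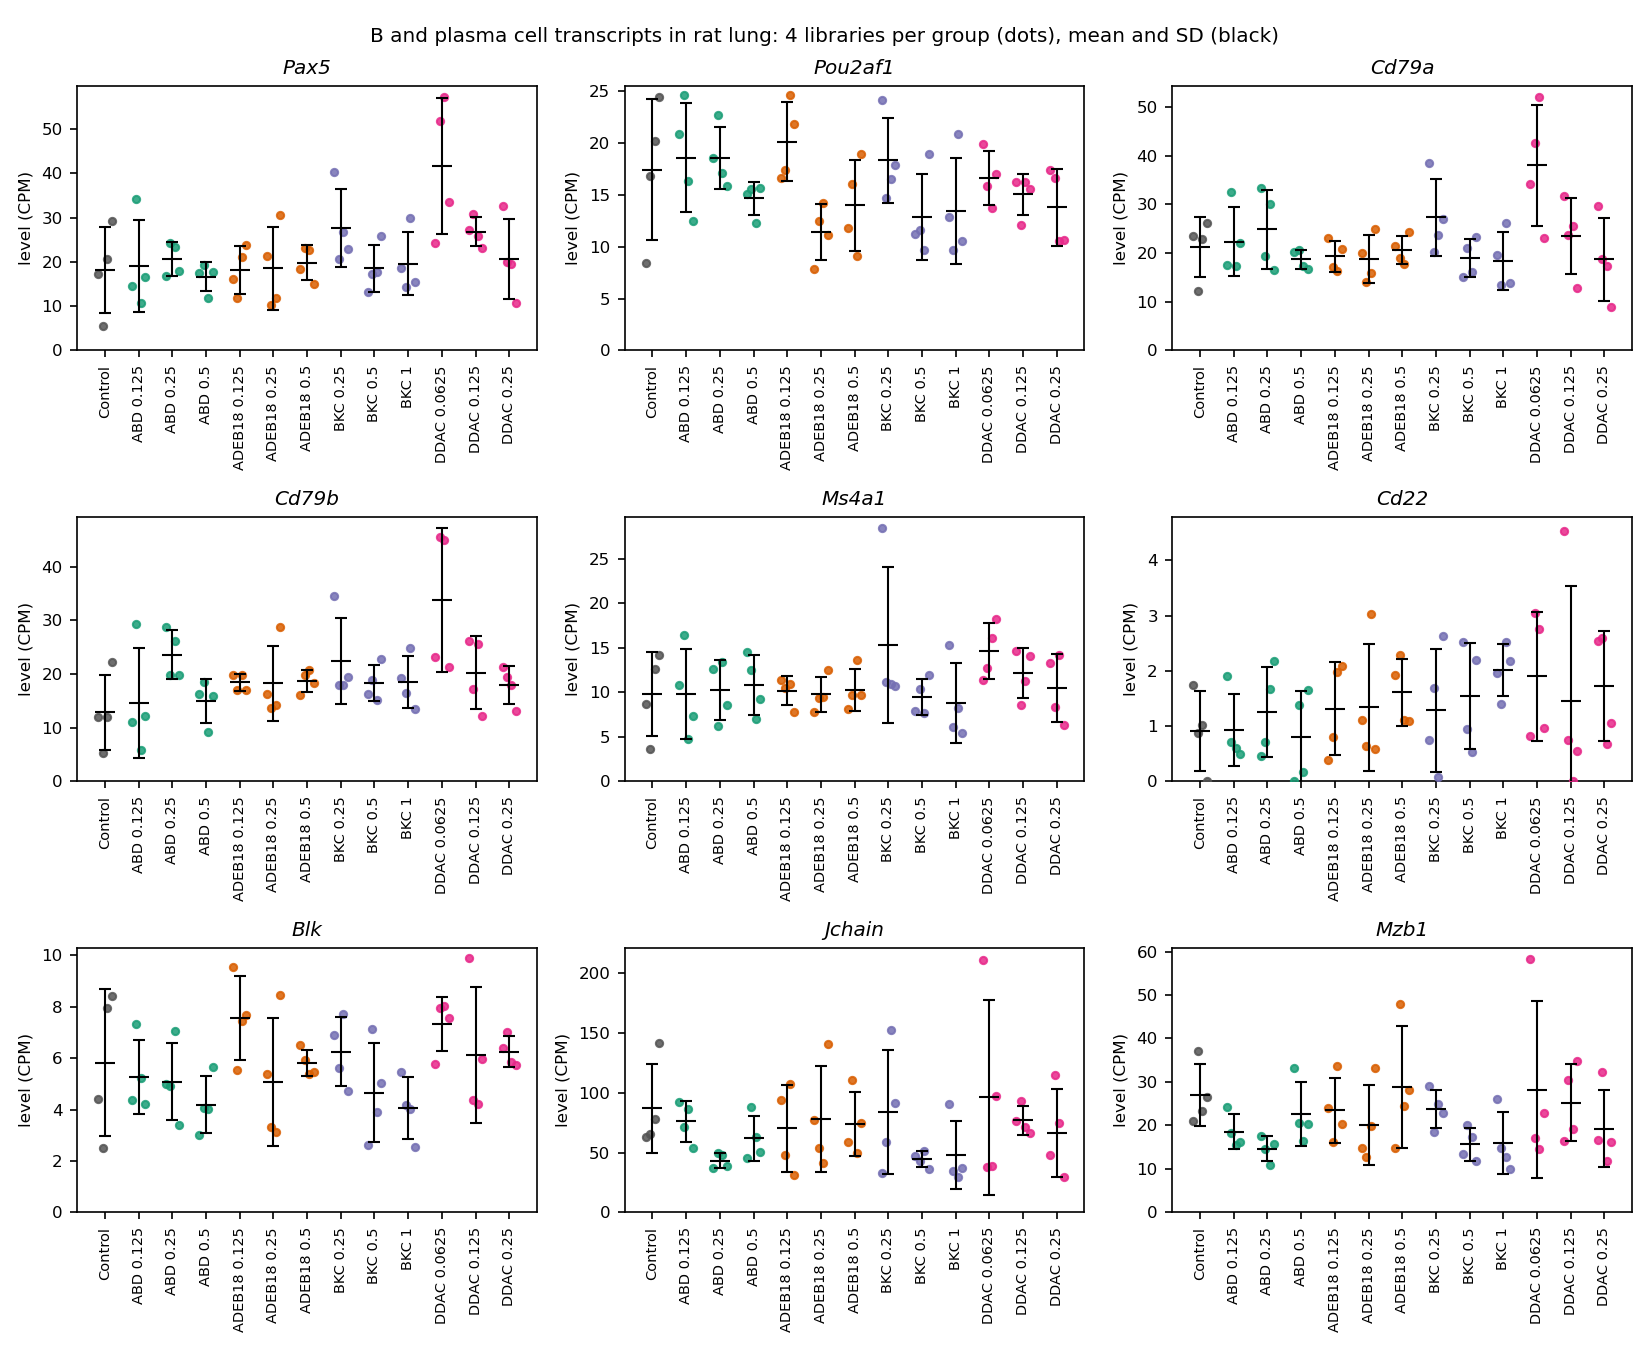
Level of each of the 9 transcripts (CPM) in 13 groups of 4 libraries, Control at the left and then each compound from its lowest to its highest dose, with dots for libraries and black marks for the mean and SD. Pax5, Cd79a and Cd79b had their highest means in DDAC 0.0625, while Jchain in that group spread from 37.8 to 211 CPM.

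Pax5, the lineage factor, averaged 18.2 ± 9.75 CPM in Control (SD, n = 4, as for all means here). From the lowest to the highest dose it averaged 19 ± 10.4, 20.6 ± 3.83 and 16.6 ± 3.26 CPM with ABD and 18.2 ± 5.38, 18.5 ± 9.38 and 19.8 ± 3.91 CPM with ADEB18. Over the doses of BKC its means were 27.7 ± 8.78, 18.5 ± 5.34 and 19.6 ± 7.14 CPM, and over those of DDAC 41.7 ± 15.4, 26.8 ± 3.25 and 20.6 ± 9.04 CPM. Its mean was highest in DDAC 0.0625 and lowest in ABD 0.5. Pou2af1, a coactivator that B cells and plasma cells both use, averaged 17.5 ± 6.78 CPM in Control. With rising doses, Pou2af1 had means of 18.6 ± 5.3, 18.6 ± 2.999 and 14.7 ± 1.63 CPM for ABD and 20.1 ± 3.79, 11.4 ± 2.67 and 14 ± 4.4 CPM for ADEB18. Its means were 18.3 ± 4.09, 12.9 ± 4.13 and 13.5 ± 5.11 CPM for BKC and 16.6 ± 2.59, 15.1 ± 1.97 and 13.8 ± 3.73 CPM for DDAC. Its means spanned less than those of Pax5, from 11.4 CPM in ADEB18 0.25 to 20.1 CPM in ADEB18 0.125, and the DDAC 0.0625 mean lay below that of Control.

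Cd79a, a signalling chain of the receptor, averaged 21.2 ± 6.15 CPM in Control. Cd79a means along the doses were 22.4 ± 7.15, 24.9 ± 8.16 and 18.7 ± 2.02 CPM with ABD and 19.4 ± 3.18, 18.7 ± 4.93 and 20.7 ± 2.86 CPM with ADEB18. BKC gave 27.4 ± 7.95, 18.9 ± 3.92 and 18.3 ± 5.96 CPM and DDAC 38 ± 12.4, 23.5 ± 7.86 and 18.7 ± 8.57 CPM. The DDAC 0.0625 mean was the highest and the BKC 1 mean the lowest. Cd79b, its partner, averaged 12.9 ± 6.99 CPM in Control, the lowest of the 13 means. From the lowest to the highest dose it averaged 14.6 ± 10.2, 23.7 ± 4.53 and 15 ± 4.1 CPM with ABD and 18.4 ± 1.57, 18.3 ± 7.05 and 18.8 ± 2.03 CPM with ADEB18. Over the doses of BKC its means were 22.5 ± 8.06, 18.3 ± 3.42 and 18.5 ± 4.83 CPM, and over those of DDAC 33.8 ± 13.3, 20.3 ± 6.77 and 18 ± 3.55 CPM. Control replicate 2, at 5.35 CPM, was the lowest of all 52 libraries for this gene. It was also the lowest for Pax5, Ms4a1 and Blk, and ranked 51 of 52 for Cd79a. All 12 dosed means of Cd79b lay above the Control mean, but 10 of 12 did without that library, when Control averaged 15.4 ± 5.93 CPM (n = 3). For Pax5, 11 of 12 dosed means lay above the Control mean, and 3 of 12 without Control replicate 2. These counts were 10 and 3 for Ms4a1, 5 and 3 for Cd79a, and 5 and 2 for Blk.

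Among the surface and kinase members, Ms4a1, which encodes the B cell surface protein CD20, averaged 9.77 ± 4.72 CPM in Control. With rising doses, Ms4a1 had means of 9.84 ± 5.05, 10.2 ± 3.38 and 10.8 ± 3.34 CPM for ABD and 10.2 ± 1.63, 9.79 ± 1.98 and 10.3 ± 2.34 CPM for ADEB18. Its means were 15.3 ± 8.75, 9.46 ± 2.05 and 8.79 ± 4.51 CPM for BKC and 14.6 ± 3.15, 12.1 ± 2.79 and 10.5 ± 3.81 CPM for DDAC. Its highest mean, in BKC 0.25, rested on 1 library at 28.4 CPM beside 3 at 10.7 to 11.2 CPM. Blk, a Src-family kinase that acts below the receptor, averaged 5.83 ± 2.86 CPM in Control. Blk means along the doses were 5.28 ± 1.44, 5.09 ± 1.5 and 4.19 ± 1.1 CPM with ABD and 7.56 ± 1.64, 5.07 ± 2.49 and 5.82 ± 0.514 CPM with ADEB18. BKC gave 6.25 ± 1.34, 4.67 ± 1.91 and 4.05 ± 1.2 CPM and DDAC 7.32 ± 1.06, 6.13 ± 2.64 and 6.26 ± 0.594 CPM. Its means ran from 4.05 CPM in BKC 1 to 7.56 CPM in ADEB18 0.125. Cd22, a sialic acid-binding receptor that dampens receptor signals, had a median of 11.5 counts per library and 0 counts in Control replicate 4, ABD 0.5 replicate 1 and DDAC 0.125 replicate 3. A count of 0 allows up to 3 counts. Cd22 averaged 0.91 ± 0.719 CPM in Control. From the lowest to the highest dose it averaged 0.928 ± 0.655, 1.26 ± 0.809 and 0.805 ± 0.837 CPM with ABD and 1.32 ± 0.846, 1.34 ± 1.15 and 1.61 ± 0.602 CPM with ADEB18. Over the doses of BKC its means were 1.29 ± 1.11, 1.54 ± 0.96 and 2.02 ± 0.474 CPM, and over those of DDAC 1.9 ± 1.17, 1.46 ± 2.07 and 1.72 ± 0.999 CPM. No order of groups can be read from Cd22 at this depth.

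Of the secretory members, Jchain averaged 87.1 ± 37.1 CPM in Control. With rising doses, Jchain had means of 76.1 ± 17.2, 43.4 ± 6.4 and 62.1 ± 18.9 CPM for ABD and 70.4 ± 36.3, 78.4 ± 44.5 and 73.7 ± 26.9 CPM for ADEB18. Its means were 83.9 ± 51.7, 44.4 ± 6.64 and 48 ± 28.5 CPM for BKC and 96.2 ± 81.7, 77 ± 11.8 and 66.9 ± 36.9 CPM for DDAC. Its SD was as large as 81.7 CPM in DDAC 0.0625, and its lowest mean was in ABD 0.25. Mzb1 averaged 27 ± 7.1 CPM in Control. Mzb1 means along the doses were 18.5 ± 3.999, 14.7 ± 2.83 and 22.6 ± 7.34 CPM with ABD and 23.5 ± 7.47, 20.2 ± 9.2 and 28.8 ± 14 CPM with ADEB18. BKC gave 23.9 ± 4.4, 15.6 ± 3.72 and 16 ± 7.03 CPM and DDAC 28.2 ± 20.4, 25.2 ± 8.82 and 19.3 ± 8.94 CPM. Its highest mean was in ADEB18 0.5 and its lowest in ABD 0.25.

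Ordering means makes the steps between neighbours small, so such steps cannot show whether groups further apart in the order differ. When the 13 means of a member were put in order, each step between neighbours was smaller than the larger of the pair's SDs in 12 of 12 steps for 8 members. For Blk this held in 11 of 12 steps, the exception being DDAC 0.0625 over DDAC 0.25. Counting error was smaller than this spread: it came to between 3.67% (Jchain) and 12.9% (Blk) of the level, and to 26.2% for Cd22, while the spread within groups was 25.5% (Pou2af1) to 53% (Jchain) and 73.8% for Cd22.

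After DDAC 0.0625 the B cell transcripts Cd79b, Pax5 and Cd79a stood above Control, and 1 of 9 members passed the test, against 2.32% of all genes. Cd79b measured 23.2, 45.6, 45 and 21.3 CPM in the DDAC 0.0625 libraries, against 12, 5.35, 12 and 22.3 CPM in the Control libraries. The groups overlapped in 1 library each: Control replicate 4 lay just above DDAC 0.0625 replicate 4. The log2 fold change was 1.38 ± 0.34 (SE; 95% interval 0.70 to 2.06; edgeR adjusted p = 0.0180). The call was lost without Control replicate 2 (adjusted p = 0.0914), DDAC 0.0625 replicate 2 (0.0747) or DDAC 0.0625 replicate 3 (0.0826), and with the 8 libraries of the 2 groups alone in the fit (0.0809), while the log2 fold change without any 1 of the 8 libraries stayed between 1.12 and 1.77.

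Pax5 measured 24.2, 51.8, 57.1 and 33.5 CPM in DDAC 0.0625 and 17.3, 5.6, 20.7 and 29.1 CPM in Control. DDAC 0.0625 replicates 2 and 3 were the 2 highest of all 52 libraries for Pax5, but DDAC 0.0625 replicate 1 lay below Control replicate 4. The log2 fold change was 1.19 ± 0.36 (95% interval 0.47 to 1.91) and missed the threshold (edgeR adjusted p = 0.0600). It passed with DESeq2 (0.0210), without Control replicate 4 (0.0460) and without DDAC 0.0625 replicate 1 (0.0496), and stayed uncalled in the other 10 of 13 settings. With 1 library left out, the log2 fold change of Pax5 ran from 0.89 to 1.51 and its edgeR adjusted p reached up to 0.203. Cd79a measured 34.2, 42.6, 52.2 and 23 CPM in DDAC 0.0625 and 23.6, 12.2, 22.9 and 26.1 CPM in Control. Here too replicates 2 and 3 were highest, and replicate 4 lay within the Control range. Its log2 fold change was 0.84 ± 0.29 (95% interval 0.26 to 1.42; edgeR adjusted p = 0.107).

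The remaining members did not follow these 3 evenly. Ms4a1 measured 11.3, 12.8, 16.1 and 18.3 CPM in DDAC 0.0625 and 8.67, 3.61, 12.6 and 14.2 CPM in Control, and Blk measured 5.77, 7.95, 8.01 and 7.57 CPM in DDAC 0.0625 and 4.42, 2.49, 7.96 and 8.43 CPM in Control. Both pairs of groups overlapped. Jchain measured 211, 37.8, 38.4 and 97.1 CPM in DDAC 0.0625 and 62.7, 65.7, 78.2 and 142 CPM in Control, and Mzb1 measured 58.3, 17.1, 14.5 and 22.9 CPM in DDAC 0.0625 and 21, 37.1, 23.3 and 26.5 CPM in Control. In DDAC 0.0625 the 2 libraries with the most Cd79b and Pax5 (replicates 2 and 3) had the least Jchain, and replicate 1 had the most Jchain and Mzb1 of all 52 libraries. The median log2 fold change of the 9 members was 0.57, with 8 of 9 above 0, beside a median of 0.00 over all genes. Members of 1 lineage in the same libraries are not independent of each other. T cell markers stood at 249 to 305 summed CPM over 16 genes in DDAC 0.0625, against 182 to 260 in Control. Of these markers 0 of 16 were called, against 2.32% of all genes, and their part in the result was not tested. Cd3e, a defining chain of the T cell receptor complex, measured 10.2, 6.76, 9.25 and 11.6 CPM in DDAC 0.0625 and 4.17, 4.48, 11.1 and 8.35 CPM in Control.

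At DDAC 0.125, 0 of 9 members passed against 1.48% of all genes, and at DDAC 0.25, 0 of 9 against 2.47%. The median log2 fold change of the members was 0.14 at DDAC 0.125 and 0.10 at DDAC 0.25. Between DDAC 0.25 and DDAC 0.0625, 0 of 9 members passed against 0.0225% of all genes, and all 9 log2 fold changes were below 0, with a median of -0.52 beside 0.00 over all genes. Cd79a measured 29.7, 18.8, 17.4 and 8.83 CPM in DDAC 0.25, against the DDAC 0.0625 values given above, a log2 fold change of -1.02 ± 0.29 (95% interval -1.60 to -0.44; edgeR adjusted p = 0.436). Pax5 measured 32.6, 19.9, 19.4 and 10.6 CPM and Cd79b 21.4, 19.5, 18 and 13.1 CPM in DDAC 0.25. Their log2 fold changes against DDAC 0.0625 were -1.01 ± 0.35 for Pax5 (95% interval -1.73 to -0.30; adjusted p = 0.649) and -0.91 ± 0.33 for Cd79b (95% interval -1.58 to -0.24; adjusted p = 0.662). This comparison shares the DDAC 0.0625 libraries with the one against Control, so it is no separate evidence on them.

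**Figure D2:**
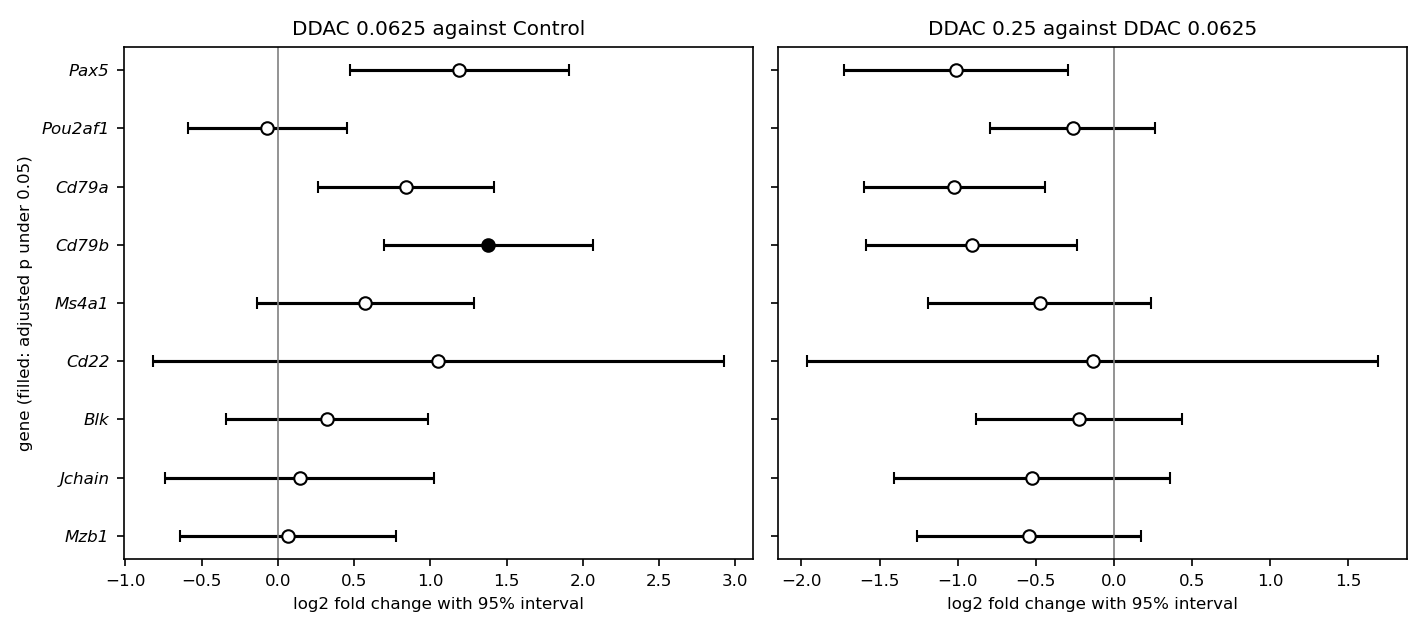
Log2 fold change of each transcript with its 95% interval, DDAC 0.0625 over Control (left) and DDAC 0.25 over DDAC 0.0625 (right); the filled point has an adjusted p under 0.05. Cd79b at 1.38 is the 1 filled point, and the intervals of Pax5 and Cd79a also lie above 0 on the left and below 0 on the right.

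The other dosed groups were set against Control in the same way. With ABD, 0 of 9 members passed at 0.125 (0% of all genes), at 0.25 (0.0225%) and at 0.5 (0.0169%). With ADEB18, 0 of 9 passed at 0.125 (0.0393%), at 0.25 (0.0393%) and at 0.5 (4.66%). With BKC, 0 of 9 passed at 0.25 (0.208%), at 0.5 (9.15%) and at 1 (10.4%), the 2 upper BKC doses being those at which the largest shares of genes differed. The members' median log2 fold changes in these 9 comparisons lay between -0.22 at BKC 1 and 0.37 at BKC 0.25. Over all 12 comparisons with Control, 11 of 108 member values (10.2%) had an unadjusted p under 0.05, 1 of which passed after adjustment. In the single comparisons 4.09% to 23.9% of all genes had an unadjusted p under 0.05. The comparisons share the Control libraries, so they are not independent of each other.

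**Figure D3:**
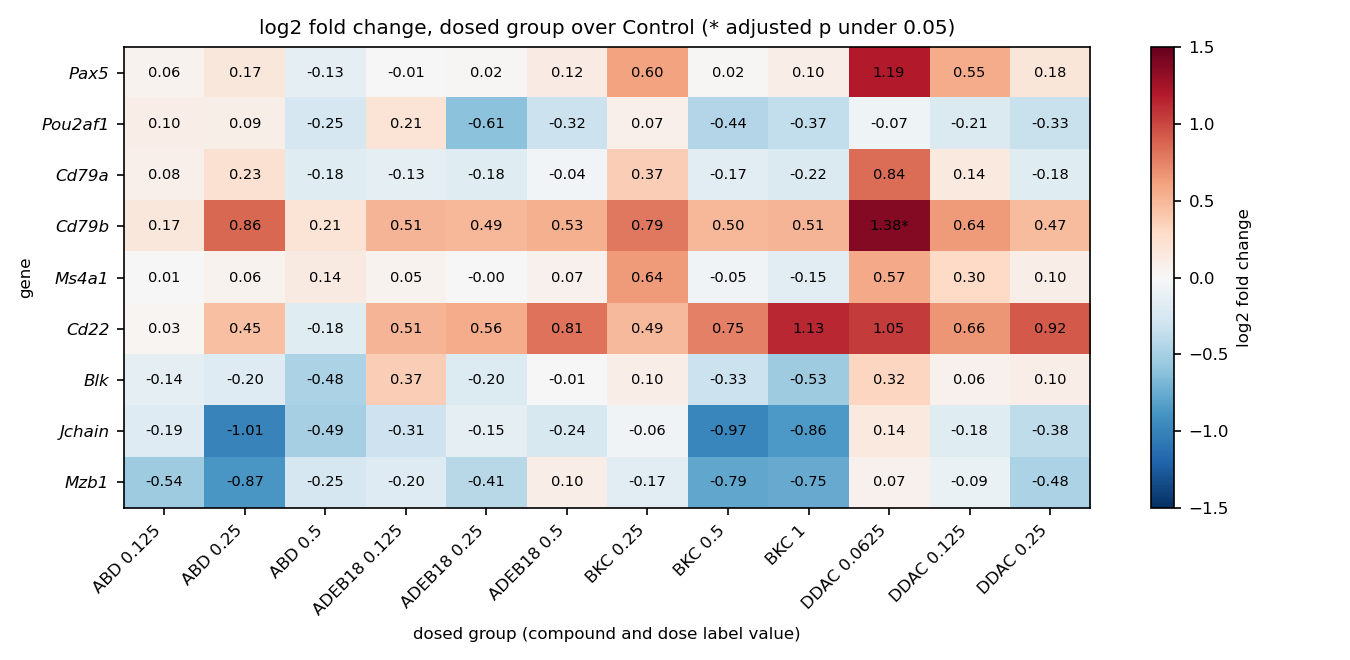
Log2 fold change of the 9 transcripts (down the page) in the 12 dosed groups over Control (across), with the value printed in each cell and an asterisk where the adjusted p was under 0.05. The single asterisk is Cd79b in DDAC 0.0625, while Jchain and Mzb1 have their lowest values in ABD 0.25, BKC 0.5 and BKC 1.

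The secretory members stood lowest in ABD 0.25, BKC 0.5 and BKC 1; these values were chosen after they were seen. Jchain measured 37.1, 49.4, 48.4 and 38.7 CPM in ABD 0.25 and 47.3, 42.8, 51.5 and 36 CPM in BKC 0.5, against 62.7, 65.7, 78.2 and 142 CPM in Control. Mzb1 measured 17.5, 14.7, 10.8 and 15.8 CPM in ABD 0.25 and 13.4, 20.02, 17.3 and 11.8 CPM in BKC 0.5, against 21, 37.1, 23.3 and 26.5 CPM in Control. In both dosed groups all 4 libraries lay below all 4 Control libraries for 2 of 9 members, Jchain and Mzb1. The same held for 1.49% of all genes in ABD 0.25 and 5.42% in BKC 0.5. Neither gene passed the test in either group: the adjusted p in ABD 0.25 was 0.656 for Jchain and 0.628 for Mzb1, and in BKC 0.5 it was 0.173 for both. Of the alternatives run, Jchain in BKC 0.5 passed only with the 2 groups fitted alone (adjusted p = 0.0406). In BKC 1, Jchain measured 90.5, 34.9, 29.3 and 37.3 CPM, of which replicate 1 lay inside the Control range.

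The series' design text names a cutoff of 2-fold with p under 0.05. With unadjusted p from the same fit, 3 of 9 members passed it in at least 1 dosed group, against 17% of all genes: Cd79b and Pax5, higher in DDAC 0.0625, and Jchain, lower in ABD 0.25.

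Between the highest and the lowest dose of the other compounds, 0 of 9 members passed with ABD (0.0169% of all genes), with ADEB18 (2.44%) and with BKC (3.99%). For BKC 1 against BKC 0.25 the median log2 fold change of the members was -0.58, and 8 of 9 were below 0. Ms4a1 measured 15.3, 6.16, 8.26 and 5.44 CPM in BKC 1 and 28.4, 11.2, 11 and 10.7 CPM in BKC 0.25, with 1 high library in each group. Its adjusted p was 0.228, the smallest of the 36 member values in the dose comparisons.

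The compounds were compared with each other at the doses they shared, over 12 pairs. The labels do not spell out BKC and DDAC, which commonly stand for benzalkonium chloride (a benzyl group and 1 long alkyl chain on the nitrogen) and didecyldimethylammonium chloride (paired decyl chains). For DDAC against BKC at 0.25, 0 of 9 members passed against 0.0337% of all genes. Cd79a averaged 18.7 ± 8.57 CPM with DDAC 0.25 and 27.4 ± 7.95 CPM with BKC 0.25, Cd79b 18 ± 3.55 CPM with DDAC and 22.5 ± 8.06 CPM with BKC, and Pax5 20.6 ± 9.04 CPM with DDAC and 27.7 ± 8.78 CPM with BKC. The 95% intervals of the log2 differences reached from -1.26 to 0.66 over the 8 members other than Cd22, so log2 differences of either sign within these bounds remain compatible with these libraries.

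In the other pairs at 0.25, 0 of 9 members passed for DDAC against ABD (1.29% of all genes), DDAC against ADEB18 (1.31%), BKC against ABD (0.129%), BKC against ADEB18 (0%) and ADEB18 against ABD (0.0169%). At 0.125, 0 of 9 passed for DDAC against ABD (1.97%), DDAC against ADEB18 (1.05%) and ADEB18 against ABD (0.0169%). At 0.5, 0 of 9 passed for BKC against ABD (8.28%), ADEB18 against ABD (3.51%) and BKC against ADEB18 (0%). Of the 108 member values, 4 (3.7%) had an unadjusted p under 0.05, against 3.86% to 22.5% of all genes in the single pairs. The smallest edgeR adjusted p of these member values was 0.384. The 95% intervals of all 12 pairs, Cd22 left out, lay between -1.62 and 1.85 on the log2 scale. A missed threshold does not show that the compounds act alike.

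In 4 of these pairs 1 member had groups that did not overlap, values again chosen after they were seen. Pou2af1 measured 7.89, 12.5, 14.2 and 11.2 CPM in ADEB18 0.25, against 18.6, 22.8, 17.1 and 15.9 CPM in ABD 0.25, and all 4 lay below all 4 for this 1 of 9 members and for 1.75% of all genes. It measured 24.1, 14.8, 16.5 and 17.9 CPM in BKC 0.25, above all 4 ADEB18 0.25 libraries, as did 1.68% of all genes. For DDAC 0.125 against ADEB18 0.125 it measured 16.3, 12.1, 16.2 and 15.6 CPM with DDAC and 16.6, 17.5, 24.7 and 21.8 CPM with ADEB18, all 4 below all 4, as for 3.53% of all genes. Of the 13 means of this gene, that of ADEB18 0.25 was the lowest and that of ADEB18 0.125 the highest. There was no step in 1 direction over the 3 ADEB18 doses. Pou2af1 passed in none of these pairs, where the smallest edgeR adjusted p of any member was 0.439, 0.846 and 0.466 in the order given. Mzb1 measured 29.2, 18.6, 24.9 and 22.8 CPM in BKC 0.25, above all 4 ABD 0.25 libraries, as did 2.85% of all genes.

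Across the 52 libraries the members fell into sets that varied separately. With group means removed, Spearman's rho among Ms4a1, Cd79a, Cd79b, Pax5 and Blk was 0.45 to 0.84 over 10 pairs, and between these 5 and Jchain or Mzb1 it was -0.08 to 0.24 over 10 pairs. Jchain and Mzb1 correlated with each other at 0.43, and Jchain with Igha, the constant region gene of immunoglobulin A, at 0.87. Pou2af1 lay at 0.23 to 0.35 with the 5, at 0.32 with Mzb1 and at 0.10 with Jchain. Cd22, the member with the fewest counts, lay at -0.20 to 0.14 with the other 8. These are descriptions over libraries that share depth scaling and groups, with no test.

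**Figure D4:**
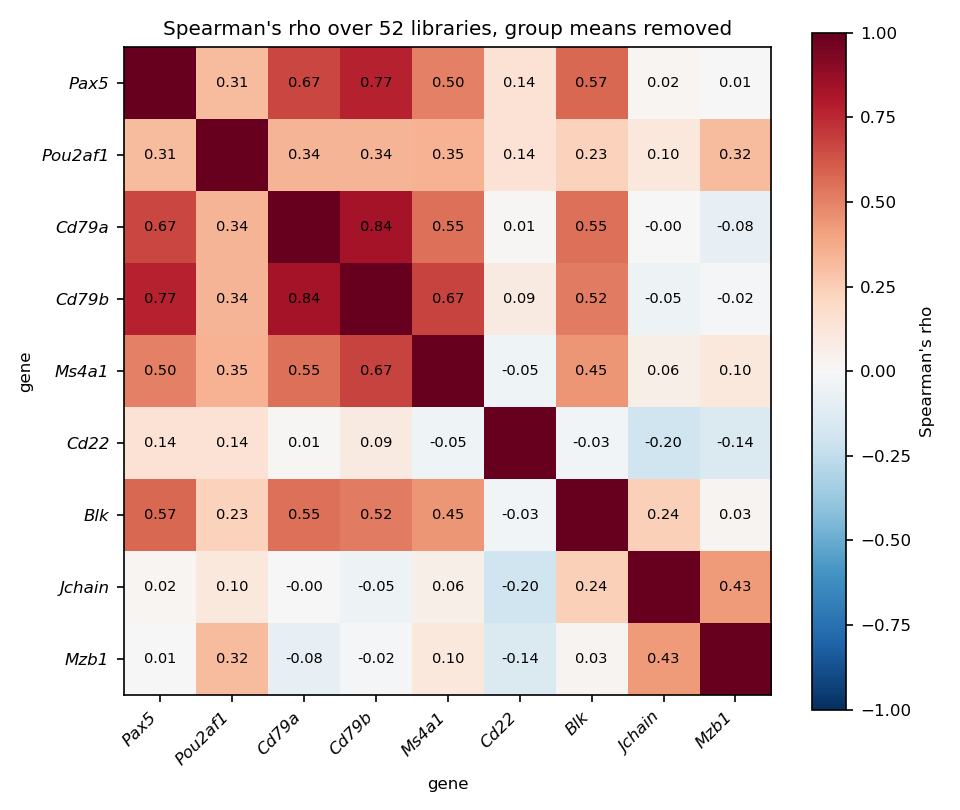
Spearman's rho for each pair of the 9 transcripts over 52 libraries after group means were removed. The 10 pairs of Pax5, Cd79a, Cd79b, Ms4a1 and Blk lie between 0.45 and 0.84, and their pairs with Jchain and Mzb1 between -0.08 and 0.24.

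Igha showed the same separation in single libraries. It measured 1425, 234, 166 and 945 CPM in DDAC 0.0625 and 719.6, 548, 591 and 992 CPM in Control, and it was not called over the 13 groups (adjusted p = 0.323). In DDAC 0.0625, Igha was thus high where Jchain was high and low in replicates 2 and 3, which had the most Pax5.

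**Figure D5:**
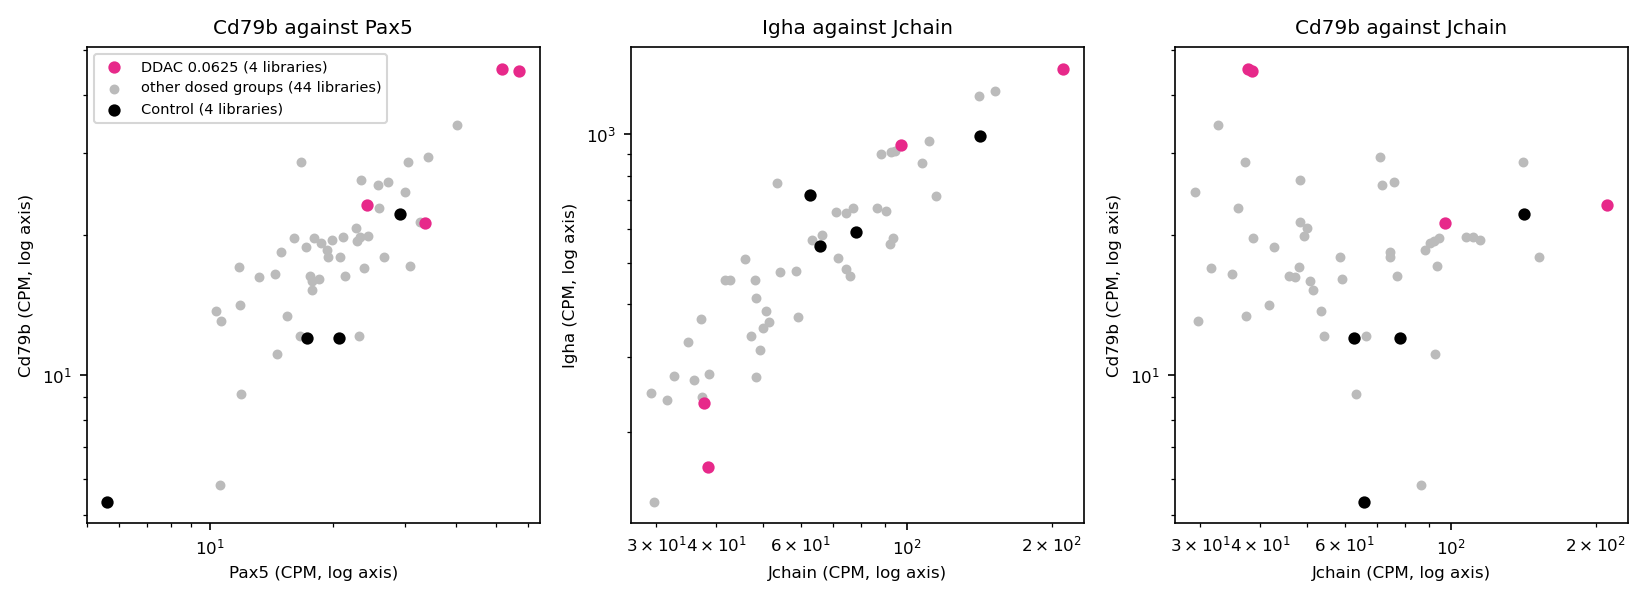
Level (CPM, log axes) of Cd79b against Pax5, Igha against Jchain and Cd79b against Jchain in 52 libraries, with DDAC 0.0625 in pink, the other dosed groups in grey and Control in black. Cd79b follows Pax5 and Igha follows Jchain, while the 2 DDAC 0.0625 libraries highest in Cd79b are among the lower ones in Jchain.

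The genes most like the 7 B cell members (all but Jchain and Mzb1) in their level over 52 libraries, outside the lists, were Ighv (Spearman's rho 0.737), Ctse (0.639), Rhoh (0.633), Ptprcap (0.585), Tnfrsf14 (0.562), Map4k1 (0.561), Gfra3 (0.559), Pde6h (0.543), Septin1 (0.543) and Niban3 (0.539). The listed Tnfrsf13c, the receptor for the B cell survival factor BAFF, reached 0.667. Ighv, by its symbol an immunoglobulin heavy chain variable gene, measured 85, 186, 188 and 132 CPM in DDAC 0.0625 and 89.2, 47.8, 73.6 and 94.2 CPM in Control, a description with no test, since the gene was picked for its likeness over the same libraries. Variable genes can be close to each other in sequence, so its count is uncertain. The 5 genes most like Jchain and Mzb1 were Ache (0.515), Fam83e (0.513), Stk33 (0.497), Ggh (0.494) and Dnaaf8 (0.478), while the listed Igha reached 0.837.

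The paired receptor chains were also set against each other within libraries. The ratio of Cd79b to Cd79a counts averaged 0.885 ± 0.162 in DDAC 0.0625, 0.606 ± 0.234 in ABD 0.125 and between 0.799 and 1.07 in the other 10 dosed groups, against 0.582 ± 0.185 in Control. The counts of 3' tags depend on each gene's 3' end, so the ratio compares groups and not the amounts of the chains.

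Of 20 further B cell genes, 19 were tested. In DDAC 0.0625 against Control 1 rose and 0 fell, while 2.32% of all genes were called. In that comparison 17 of 19 had a log2 fold change above 0, and their median was 0.64 beside 0.00 over all genes. In DDAC 0.25 against DDAC 0.0625, 0 of 19 passed, against 0.0225% of all genes. There 0 of 19 lay above 0 and the median was -0.50. The gene that rose was Swap70, a signalling protein active in B cells, at 24.5, 43.9, 34.6 and 50.8 CPM in DDAC 0.0625 and 21.2, 11.3, 14.3 and 15.4 CPM in Control. All 4 dosed libraries lay above all 4 Control libraries, but the share of all genes for which the same held was not counted. The log2 fold change was 1.30 ± 0.32 (edgeR adjusted p = 0.0180); the call was lost without Control replicate 2 (0.0747) or 4 (0.0659) and without DDAC 0.0625 replicate 2 (0.0518) or 4 (0.0693). Swap70 also rose in BKC 1 (1.14 ± 0.32; adjusted p = 0.0158, and 0.0631 without Control replicate 2), where 1 of 19 passed against 10.4% of all genes, and the median was 0.06. The level of Swap70 had a Spearman's rho of 0.142 with the mean of the 7 B cell members over 52 libraries. Bank1, a B cell scaffold protein, fell in BKC 0.5 against ABD 0.5 (-0.90 ± 0.25; adjusted p = 0.0188; 1 of 19, against 8.28% of all genes), a call lost without ABD 0.5 replicate 3 (0.175) or BKC 0.5 replicate 3 (0.121). Over the 13 groups 4 of 19 passed, against 24.2% of all genes: Swap70 (adjusted p = 0.00239), Bank1 (0.00321), Cd37 (0.0156) and Fcmr (0.0223), a receptor for immunoglobulin M. Cd37, a tetraspanin of B cells, averaged 35.3 ± 6.13 CPM in DDAC 0.0625 and 22.6 ± 3.57 CPM in Control.

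Plasma cell and immunoglobulin genes were listed by 20 names, of which 12 were among the rows and 11 were tested. None of the 11 passed in DDAC 0.0625, against 2.32% of all genes, and their median log2 fold change there was -0.04. Fkbp11, a secretory pathway isomerase that is also made by other secretory cells, rose in BKC 1 (0.94 ± 0.21; adjusted p = 0.00271), a call lost without BKC 1 replicate 4 (0.0531) or with the 2 groups alone in the fit (0.0603), and in BKC 0.5 (0.71 ± 0.21; adjusted p = 0.0260), a call lost without Control replicate 1, 2 or 4 or BKC 0.5 replicate 3. Slamf7, a surface receptor of plasma cells and cytotoxic lymphocytes, fell in BKC 1 (-1.01 ± 0.26; adjusted p = 0.00843), a call lost without Control replicate 4 (0.0790) or BKC 1 replicate 2 (0.0501). Slamf7 averaged 16.4 ± 3.33 CPM in BKC 1 and 33.0 ± 10.9 CPM in Control. In BKC 1 these were 2 of 11 genes, against 10.4% of all genes, and over the 13 groups 3 of 11 passed, against 24.2%. Sdc1, which marks plasma cells but is also made by epithelium, passed over the 13 groups (adjusted p = 0.0434) and averaged 169 ± 22 CPM in BKC 1 and 139 ± 5.76 CPM in Control.

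Of 16 genes of B cell receptor signalling, all tested, 1 rose in DDAC 0.0625, 1 in DDAC 0.125 and 1 in DDAC 0.25. In these groups 2.32%, 1.48% and 2.47% of all genes were called. The gene that rose was the same each time. This was Bcl10, an adaptor for NF-kB activation below antigen receptors that many cell types use. Bcl10 averaged 18.3 ± 2.73 CPM in Control, and then 40.8 ± 7.87, 45.5 ± 10.3 and 43.3 ± 8.36 CPM at DDAC 0.0625, 0.125 and 0.25. Its log2 fold changes were 1.15 ± 0.28, 1.31 ± 0.28 and 1.24 ± 0.28 (adjusted p = 0.0180, 0.0127 and 0.0156), and each call was lost without 1 or 2 single libraries: Control replicate 2 (0.0593) or DDAC 0.0625 replicate 3 (0.0788), DDAC 0.125 replicate 1 (0.0658), and DDAC 0.25 replicate 2 (0.0644). Malt1, the protease that acts with Bcl10, rose in BKC 1 (1.07 ± 0.24; adjusted p = 0.00219) and BKC 0.5 (0.81 ± 0.24; adjusted p = 0.0224, lost without Control replicate 2 or BKC 0.5 replicate 3 and with the 2 groups alone in the fit, 0.0502). In BKC 1 it was 1 of 16, against 10.4% of all genes. Malt1 averaged 26.5 ± 8.22 CPM in DDAC 0.0625, 53.2 ± 16.8 CPM in BKC 1 and 25.2 ± 6.09 CPM in Control. In ADEB18 0.5, 2 of 16 rose, against 4.66% of all genes, Bcl10 (0.94 ± 0.28; adjusted p = 0.0441) and Malt1 (0.76 ± 0.24; adjusted p = 0.0483), but each call was lost without any 1 of the 8 libraries, and that of Malt1 also with other size factors (0.0518) or no filter (0.0552). Over the 13 groups 4 of 16 passed, against 24.2% of all genes, among them Ptpn6, a phosphatase that restrains the receptor (adjusted p = 0.00987).

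Of 15 niche and homing genes, 12 were tested, and 2 of 12 passed over the 13 groups, against 24.2% of all genes. Ccl21, which draws lymphocytes into lymphoid tissue, fell in ADEB18 0.5 (-1.24 ± 0.23; adjusted p = 0.00116) and BKC 0.5 (-0.83 ± 0.22; adjusted p = 0.0136), and averaged 43.4 ± 5.42 CPM in ADEB18 0.5, 57.7 ± 5.96 CPM in BKC 0.5 and 103 ± 4.04 CPM in Control. In both groups the 9 members gave 0 calls, as stated above. Ccl19, a ligand of the same receptor, passed over the 13 groups (adjusted p = 0.0240), with 229 CPM in ABD 0.125 replicate 2 as its highest library. That library also had the most Glycam1, a ligand of high endothelial venules, at 89.3 CPM, and the most Cxcl13, a chemokine for B cells, at 21.1 CPM. Tnfsf13b, which encodes BAFF, did not pass over the 13 groups (adjusted p = 0.197). Fdcsp, a marker of follicular dendritic cells, had 0 counts in every library.

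Of 8 germinal centre genes, 6 were tested, and 1 of 6 passed over the 13 groups, against 24.2% of all genes. This was Bcl6 (adjusted p = 0.0447), which is also made outside germinal centres. It averaged 44.6 ± 4.67 CPM in DDAC 0.0625 and 33.9 ± 7.11 CPM in Control, a pair in which it was not called. S1pr2 (adjusted p = 0.13) and Mybl1 (0.171) followed and did not pass.

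Over the 13 groups 24.2% of all genes passed, a share to set beside each such count in this paragraph. Of the T cell markers, 1 of 16 passed over the 13 groups: Cd4 (adjusted p = 0.0261), which rat macrophages also make, followed by Lat (0.0521) and Cd3g (0.0786), which did not pass. Cd4 fell in BKC 1 (-1.08 ± 0.27; adjusted p = 0.00659) and ADEB18 0.5 (-0.95 ± 0.27; adjusted p = 0.0301), and averaged 16.1 ± 5.59 CPM in BKC 1, 17.7 ± 2.86 CPM in ADEB18 0.5 and 34.2 ± 14.7 CPM in Control. Both calls were lost without Control replicate 3 (0.0519 for BKC 1, 0.139 for ADEB18 0.5) and with the 2 groups alone in the fit (0.0628 for BKC 1, 0.052 for ADEB18 0.5), and the ADEB18 0.5 call also without Control replicate 4 or ADEB18 0.5 replicate 2, 3 or 4. Markers of plasmacytoid dendritic cells, which share Tcf4 and Spib with B cells, gave 0 of 9 calls in DDAC 0.0625, against 2.32% of all genes. They stood at 1094 to 1306 summed CPM there and at 1100 to 1260 in Control. Over the 13 groups 2 of 9 passed, Runx2 (adjusted p = 0.00628) and Siglech (0.00653), and Tcf4 did not (0.0539). Siglech averaged 29.2 ± 11.4 CPM in BKC 1 and 12.8 ± 1.62 CPM in Control, and its rise there (1.18 ± 0.35; adjusted p = 0.0228) was lost without Control replicate 1 or 4 or BKC 1 replicate 2. Neutrophil markers gave 158 to 494 summed CPM in DDAC 0.0625 and 267 to 567 in Control, and 0 of 8 passed over the 13 groups, with S100a9 (0.11), S100a8 (0.114) and Mmp9 (0.132) nearest. Of the thymus and precursor markers 0 of 4 passed, with Dntt (0.254), Rag1 (0.333) and Igll1 (0.682) nearest. Of 6 lung identity markers, 4 passed over the 13 groups, led by Cldn5 of endothelium (4.03e-05), Ager of type I alveolar cells (0.00323) and Sftpb of surfactant-making cells (0.00771). Ager averaged 1321 ± 223 CPM in BKC 1 and 2512 ± 626 CPM in Control, and Cldn5 156 ± 17.25 CPM in BKC 1 and 246 ± 52.05 CPM in Control. Of 6 cardiac muscle genes 1 passed, Actc1 (0.013), while Nppa (0.0776) and Tnnt2 (0.395) did not.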

How the data were processed

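The deposited values are raw read counts per gene and library, with no normalization by the authors. Per the submitters' processing notes, fastp, STAR and HTSeq were used with rat build mRatBN7.2; versions, the annotation and the strand setting are not stated there. Per the labels' protocols, 500 ng of total RNA went into Lexogen QuantSeq libraries. The labels number 4 samples per group and do not say that each is a separate rat, so p-values measure the spread between these samples, which may be technical.

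The counts of 52 libraries were fitted in 1 model with 1 term per group (edgeR 4.0.16 in R 4.3.3, TMM scaling, filterByExpr, quasi-likelihood test, 39 residual degrees of freedom), and p-values were adjusted over all 17796 genes (Benjamini-Hochberg; two-sided; threshold 0.05). CPM values use the TMM-scaled library sizes. Intervals are 95% intervals of the log2 fold change. DESeq2 1.42.0, other size factors, no filter, a replicate block, 2 groups alone and each library left out were the alternatives; the 2-fold cutoff was added after the data were seen. The code was tested on simulated counts.

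The members and lists were chosen with earlier results of these data known. Log2 fold changes are printed for members past the threshold or with an unadjusted p under 0.01, and for each other list the 3 genes with the smallest p over the 13 groups are named; other values, Cd3e among them, were chosen after they were seen. In the GRCr8 annotation Ms4a1 and Pax5 each overlap 1 other gene, and without the strand setting their reads may not be told apart.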

Additional observations from a re-analysis of the deposited data

Results flagged for a closer look

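In 8 of the 130 groups of 4 libraries examined (9 members and their sum in 13 groups), 1 library lay far from the other 3; chance gives about 1 in 20 such groups. Summed over the 9 members, DDAC 0.0625 replicate 1 stood at 389.3 CPM, beside 235 to 248 CPM in the other 3, and this is the library with the most Jchain and Mzb1. In BKC 0.25, replicate 1 stood apart for Ms4a1 (28.43 CPM, others 10.7 to 11.2) and for Cd79b (34.53 CPM, others 17.97 to 19.5). Jchain was 90.49 CPM in BKC 1 replicate 1, beside 29.3 to 37.3 CPM. Pou2af1 was low in ABD 0.5 replicate 3 (12.25 CPM, others 15.1 to 15.7) and in DDAC 0.125 replicate 2 (12.14 CPM, others 15.6 to 16.3). Cd22, which rests on few counts, was 1.902 CPM in ABD 0.125 replicate 1, beside 0.496 to 0.707 CPM, and 4.528 CPM in DDAC 0.125 replicate 1, beside 0 to 0.747 CPM.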

How the results depend on the processing

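The number of members called was the same in 399 of 420 planned settings. In DDAC 0.0625 against Control it was 1, but 2 with DESeq2, 0 with the 2 groups alone, and 0 to 2 when 1 library was left out: 0 without Control replicate 2 or DDAC 0.0625 replicate 2 or 3, and 2 without Control replicate 4 or DDAC 0.0625 replicate 1. In BKC 0.5 against Control it was 0, but 1 with the 2 groups alone. Over the 13 groups it was 0, but 3 with DESeq2, 2 with no filter, and 0 to 3 when 1 library was left out: 1 to 3 without Control replicate 2 or 4, ABD 0.125 replicate 2, ABD 0.25 replicate 4, ADEB18 0.25 replicate 4, BKC 1 replicate 3, DDAC 0.0625 replicate 1 or 4, DDAC 0.125 replicate 4, or DDAC 0.25 replicate 1 or 4. With the study's 2-fold cutoff on unadjusted p, 2 members passed in DDAC 0.0625 and 1 in ABD 0.25. The cause of these differences was not tested. Genes called in DDAC 0.0625 against Control numbered 412, and 137 to 402 when 1 library was left out, 749 with DESeq2 and 314 with no filter. Depth limits Cd22, at a median of 11.5 counts, more than the others.

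Of 676 settings for the log2 fold changes of members and of the genes that the naming rule took from the lists, including comparisons not described above, 565 kept direction and side of the threshold, 107 lost the call, 4 gained it and 0 turned direction. The replicate block changed no member count. Cd79b in DDAC 0.0625 was 1.37 with the block (adjusted p = 0.0255). Libraries that share a number did not on average deviate together. Their mean correlation was 0.00387 over 312 pairs, beside -0.00127 for libraries of different number. Single pairs ran from -0.290 to 0.343, with 54 over 0.1, so the mean does not speak for each pair.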
